A study of Mus musculus with 2 samples.

Results

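Lipid-associated macrophages of diseased liver are commonly recognised by a small group of transcripts, and 7 of these genes, Gpnmb, Trem2, Spp1, Cd63, Mmp12, Fabp5 and Ms4a7, were followed here out of 31057 genes in the count tables. The genes were chosen by name, with their detection, co-detection and level in cirrhosis against control already known from these tables, so their values are given as a description and support nothing on their own. All 7 had counts in both libraries. The measurements are single-cell RNA counts of mouse liver cells sorted for an endothelial reporter, in which macrophages, bile duct cells and lymphocytes were also found.

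When macrophages take up lipid and cell debris, they switch on a set of genes for sensing, breaking down and storing that load. TREM2 is a surface receptor that binds lipids and signals through the adaptor DAP12, and in its neighbourhood act lysosomal membrane proteins, fatty acid chaperones and secreted proteins that reshape the matrix. In the liver such cells have been described around fibrotic scars and in fatty liver disease, beside Kupffer cells, the resident macrophages of the sinusoids. Osteopontin, the product of Spp1, is also a standard product of bile duct epithelium, and CD63 and FABP5 are made by endothelial cells, so the 7 genes are not restricted to macrophages.

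The mice were C57BL/6 animals of 16 weeks with the genotype Cdh5-Cre+, mTmG +/+, in which a recombinase under an endothelial promoter turns a membrane tdTomato reporter into membrane GFP. Cirrhosis was induced by inhaled carbon tetrachloride (CCl4) for 12 weeks, the control mice carried the same alleles, and livers of 3 mice were pooled per group into 1 library. Cells were released with collagenase, hepatocytes were spun down, and live GFP-positive cells were sorted. The control library held 5642 barcodes with 45767322 UMIs (unique molecular identifiers, 1 per captured RNA molecule) and a median of 6865 UMIs, and the cirrhosis library 8327 barcodes with 77339928 UMIs and a median of 8537. Because there was 1 library per group, no test could be made, and all intervals below are 95% intervals that cover counting error only, not the spread between mice. The lowest barcode held 500 UMIs in both libraries, and 17 barcodes occurred in both.

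The labels give the cell type as endothelial cells. After filtering, 4953 control and 7191 cirrhosis cells remained, of which 3045 and 2869 were liver sinusoidal endothelial cell-like (LSEC-like) by markers such as Stab2, at 2355 and 1663 CPM (UMIs of the gene per 1000000 UMIs of its class in that library). Macrophage-like cells numbered 228 and 611, or 4.60% (4.04 to 5.22) and 8.50% (7.86 to 9.17) of the retained cells, shares that the GFP sort can set. They had all 10 macrophage markers in both libraries, with C1qa, a complement subunit of tissue macrophages, at 5585 CPM in control and 4178 CPM in cirrhosis. Their eGFP counts were low, at 148 and 141 CPM against 1727 and 1516 CPM in LSEC-like cells. The tdTomato counts were higher than in LSEC-like cells, at 53.2 and 40.3 CPM against 0.663 and 0.576 CPM. LSEC markers in the macrophage-like cells summed to 1216 and 1133 CPM against 18993 and 12877 CPM. The macrophages are therefore cells outside the type that was sorted, and what brought them through the gate was not tested. Macrophages were clustered with the 7 genes left out.

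In macrophage-like cells all 7 genes were higher in the cirrhosis library, from 5.22-fold for Ms4a7 to 122-fold for Gpnmb. Together they made up 353 CPM of the control macrophage counts and 4117 CPM of the cirrhosis counts. Of the 5869 genes that averaged at least 20 CPM, 4.26% were at least 2-fold higher in cirrhosis and 5.49% at least 2-fold lower. The median log2 ratio of the 7 genes was 3.90, beside -0.03 over all these genes, and 2.76 with a stricter cell filter. The 7 genes were chosen on this contrast, so nothing is read from their count.

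Among the receptors and membrane proteins, Trem2 stood at 68.1 CPM (55.2 to 83.2, from 96 UMIs) in control and 697 CPM (675 to 719, from 3944 UMIs) in cirrhosis, a 10.2-fold difference. Ms4a7, a membrane protein of the MS4A family found in macrophages, stood at 104 CPM (87.5 to 122) and 541 CPM (522 to 560). Gpnmb, a glycoprotein of phagosome and lysosome membranes, had 5 UMIs in the 228 control cells, 4 of them in 1 cell, and 2455 UMIs in cirrhosis. Trem2 and Ms4a7 were thus present in control macrophages and higher in cirrhosis, while Gpnmb was close to its limit of detection in control. The Gpnmb levels were 3.55 CPM (1.15 to 8.28) and 434 CPM (417 to 451), a log2 ratio of 6.93 (5.71 to 8.56). The control interval held the 5.21 CPM of control T or NK cell-like cells, a type that should lack Gpnmb. Control LSEC-like cells stood lower, at 0.133 CPM (0.0274 to 0.388). No Gpnmb UMI was found in control B cell-like, large-vessel endothelial-like, cholangiocyte-like, other myeloid or plasmacytoid dendritic cell-like cells. Whether the control macrophage level is background was not tested.

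The vesicle protein CD63, a tetraspanin of late endosomes, was encoded by transcripts at 51.8 CPM (40.6 to 65.1) in control and 773 CPM (751 to 797) in cirrhosis. Fabp5, a cytosolic carrier of long-chain fatty acids, stood at 48.2 CPM (37.5 to 61.2) and 815 CPM (792 to 839). Their log2 ratios were 3.90 (3.57 to 4.25) and 4.08 (3.73 to 4.45). Both genes have processed copies elsewhere in the genome, Cd63-ps and Fabp5l2, that are not rows of the tables, so how reads shared with those copies were counted is uncertain.

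For the secreted proteins the control values rested on few cells. Spp1 had 23 UMIs in control, 16.3 CPM (10.3 to 24.5), and 1992 UMIs in cirrhosis, 352 CPM (337 to 368). Mmp12, the macrophage metalloelastase that cleaves elastin, stood at 61.0 CPM (48.8 to 75.4) and 504 CPM (486 to 523). The control level of Spp1 was the same as in LSEC-like cells, 17.0 CPM, and the T or NK cell-like class, 17.1 CPM, so it is read as background. A single control cell held 50 of the 86 Mmp12 UMIs, and without it the control level was 25.7 CPM. A single cirrhosis cell held 411 of the Spp1 UMIs, and without it the level was 282 CPM. The 8.27-fold difference of Mmp12 and the 21.6-fold difference of Spp1 were thus partly set by 1 cell each.

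In cirrhosis 72 of the 611 macrophage-like cells also held a UMI of a bile duct gene (Krt7, Krt19, Epcam, Sox9, Cldn7 or Tm4sf4), and cholangiocyte markers summed to 17.7 CPM in control and 112 CPM in cirrhosis macrophages. In the 539 cells without such a UMI, Spp1 was at 302 CPM, Gpnmb at 473 CPM and Fabp5 at 908 CPM. In the 219 control cells without one, the same genes were at 16.0, 3.80 and 49.4 CPM. Cells without such a UMI were shallower in cirrhosis, at a median of 3747 UMIs against 14690 in cells with one, and the part of depth was not tested. Other lists moved as well: the median mitochondrial share was 11.6% in control and 5.80% in cirrhosis macrophages, hepatocyte markers summed to 1462 and 2020 CPM, and plasma cell markers to 19.2 and 459 CPM, with 2656 CPM in sub-cluster 9 of cirrhosis. Their part in the differences was not tested. Within a class, CPM cannot tell more RNA per cell from a larger share of cells that carry the RNA, so detection per cell is given next.

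**Figure D1:**
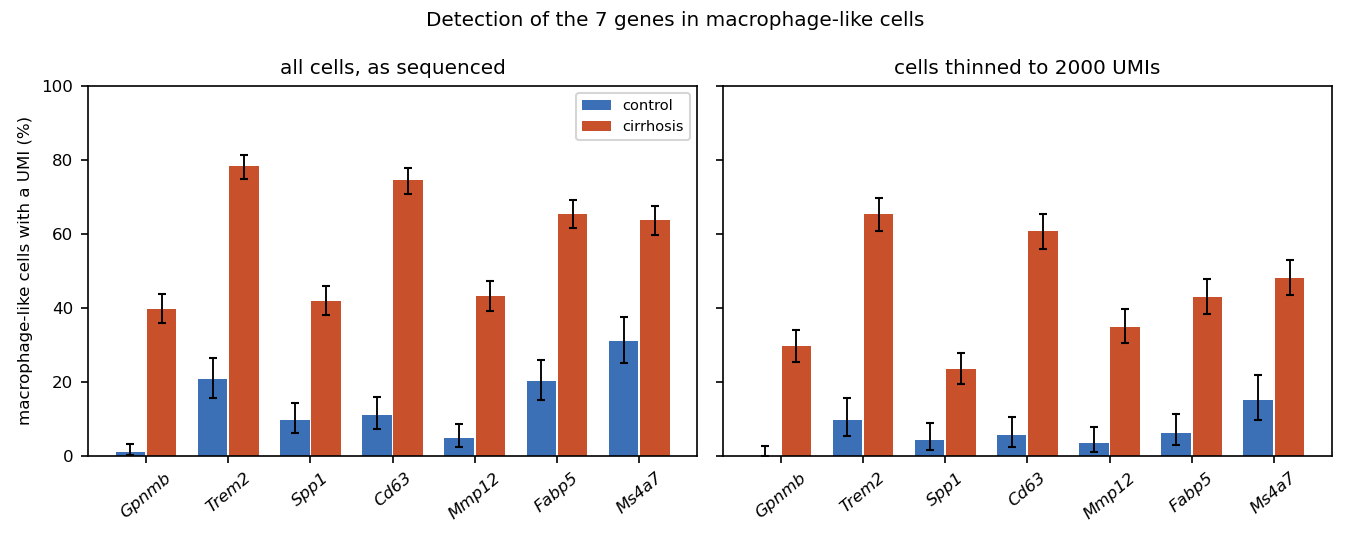
Share of macrophage-like cells with at least 1 UMI of each gene, in percent, for all cells (left, 228 control and 611 cirrhosis cells) and for cells thinned to 2000 UMIs (right, 146 and 436 cells). Bars are 1 library each and lines are 95% Clopper-Pearson intervals. Trem2 was seen in 20.6% of control and 78.2% of cirrhosis cells, and Gpnmb in 0.877% and 39.8%.

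As sequenced, at median depths of 3134 and 4295 UMIs, Trem2 was detected in 20.6% (15.6 to 26.5) of control and 78.2% (74.7 to 81.4) of cirrhosis macrophages. Cd63 followed with 11.0% and 74.5%, Fabp5 with 20.2% and 65.5%, and Ms4a7 with 31.1% and 63.7%. Gpnmb, Spp1 and Mmp12 were seen in fewer cells, in 0.877%, 9.65% and 4.82% of control and 39.8%, 41.9% and 43.2% of cirrhosis macrophages. Every gene was detected in a larger share of cirrhosis cells, and none in all of them. In T or NK cell-like cells, at median depths of 6722 and 5759 UMIs, the shares were 0% and 3.73% for Trem2, 11.3% and 13.7% for Cd63, 30.1% and 21.2% for Fabp5, and 13.2% and 14.1% for Spp1. At 2000 UMIs per cell the control share of Spp1 was 4.11% in macrophages and 4.58% in the T or NK cell-like class. Whether this share is background or expression was not tested. The control Fabp5 level of 48.2 CPM lay between the 28.9 CPM (18.5 to 43.0) of B cell-like cells and the 113 CPM (99.4 to 129) of T or NK cell-like cells, in which LSEC markers summed to 3639 CPM. Whether it is background was not tested. The control share of Cd63 was close to that of T or NK cell-like cells, and 52 of its 73 UMIs lay in the 39 other macrophage-like cells, at 284 CPM. In control Kupffer cell-like cells Cd63 stood at 17.1 CPM (10.6 to 26.2), beside 24.2 CPM in the T or NK cell-like class.

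Because the cirrhosis macrophages were deeper, each cell was thinned at random to 2000 UMIs, which left out 82 control and 175 cirrhosis cells below that depth. At equal depth Trem2 was in 9.59% and 65.4% of cells, Ms4a7 in 15.1% and 48.2%, Cd63 in 5.48% and 60.8%, Fabp5 in 6.16% and 42.9%, Mmp12 in 3.42% and 34.9%, and Spp1 in 4.11% and 23.4%. Gpnmb was in 0 of 146 control cells, which allows a share of cells with a UMI of up to 2.05% at this depth, and in 29.6% of 436 cirrhosis cells. The order of the 2 libraries was the same for every gene with and without thinning.

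The sequences just upstream of the start sites are shown for Gpnmb, Trem2 and Spp1, the genes with which the lipid-associated state is most often named. They are the 250 bases before the annotated start in RefSeq on GRCm38.p6, all on the plus strand, and 6 of the 7 genes matched an entry, all except Fabp5. Capitals mark matches to the motifs searched on both strands. These were TGANTCA for AP-1, a stress-responsive factor, the E-box CACGTG and its variant form written as CATGTG for the MiT/TFE factors, the core GAGGAA for PU.1, the myeloid master factor, and the box of general transcription spelled TATAAA. The windows are chr6:49036268-49036517 for Gpnmb, chr17:48346151-48346400 for Trem2 and chr5:104434861-104435110 for Spp1.
Gpnmb: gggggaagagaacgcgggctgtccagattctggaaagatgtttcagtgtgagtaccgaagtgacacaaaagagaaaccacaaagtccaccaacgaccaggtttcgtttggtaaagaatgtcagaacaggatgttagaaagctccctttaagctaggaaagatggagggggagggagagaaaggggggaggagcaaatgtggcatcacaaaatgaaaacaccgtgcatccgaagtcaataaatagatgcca
Trem2: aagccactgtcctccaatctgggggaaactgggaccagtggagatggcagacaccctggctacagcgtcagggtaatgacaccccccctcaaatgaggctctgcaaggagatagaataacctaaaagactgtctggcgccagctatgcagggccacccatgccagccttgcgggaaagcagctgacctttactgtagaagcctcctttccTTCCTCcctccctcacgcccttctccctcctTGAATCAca
Spp1: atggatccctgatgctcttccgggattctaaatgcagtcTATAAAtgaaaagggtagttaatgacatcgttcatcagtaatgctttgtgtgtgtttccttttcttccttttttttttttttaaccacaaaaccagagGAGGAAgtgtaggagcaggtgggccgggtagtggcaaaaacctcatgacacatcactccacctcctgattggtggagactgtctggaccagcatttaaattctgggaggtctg
Trem2 held an AP-1 match 9 to 3 bases and a GAGGAA match on the minus strand 40 to 35 bases before its start. Spp1 held GAGGAA 113 to 108 and TATAAA 211 to 206 bases before its start, and no searched motif was found in the Gpnmb window. Over 32851 promoter windows of the same length, 6.75% held TGANTCA, 6.02% CACGTG, 12.3% CATGTG, 23.3% GAGGAA and 12.4% TATAAA. The matches describe only the letters. In the other windows Cd63 held 2 GAGGAA matches, the first start of Mmp12 held 1, its second start held AP-1 and CATGTG, and the second start of Ms4a7 held AP-1.

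The genes themselves lie on 7 chromosomes, by GENCODE M21 on GRCm38, and each is protein coding. Gpnmb is at chr6:49036546-49070929, Trem2 at chr17:48346401-48354147, Spp1 at chr5:104435118-104441050, Cd63 at chr10:128900989-128912822, Mmp12 at chr9:7344381-7369499 and Fabp5 at chr3:10012548-10016607, all on the plus strand. Ms4a7 is on the minus strand at chr19:11321039-11336146. Spp1 overlaps Gm42793 on the same strand, and Mmp12 overlaps Mmp1b on the opposite strand.

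The macrophages of the libraries differed in kind. Kupffer cell-like cells, led by Clec4f, Cd5l and Vsig4, were 189 of 228 control macrophages, 82.9% (77.4 to 87.5), and 148 of 611 in cirrhosis, 24.2% (20.9 to 27.8). The other macrophage-like cells, led by Lyz2 and C1q genes, numbered 39 and 463. In control most Kupffer cell-like cells were in sub-clusters 0 and 4, and in cirrhosis in sub-clusters 4 and 14, so a comparison over all macrophages mixes composition with level within a kind.

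Within Kupffer cell-like cells all 7 genes were again at least 2-fold higher in cirrhosis, where 2.91% of 5772 genes were, and 3.98% were at least 2-fold lower. Mmp12 stood at 9.79 CPM in control and 620 CPM in cirrhosis, the latter above the 465 CPM of the other macrophages. Cd63 stood at 17.1 and 493 CPM, Gpnmb at 4.08 and 162 CPM, and Trem2 at 57.9 and 497 CPM. Spp1, Fabp5 and Ms4a7 showed the smaller log2 ratios in these cells, 2.29 (1.62 to 3.04), 1.96 (1.54 to 2.40) and 1.74 (1.41 to 2.09). The Spp1 level of 83.9 CPM in cirrhosis was 45.2 CPM without its highest cell.

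Sub-cluster 4 was the only Kupffer cell-like sub-cluster with many cells of both libraries. It held 118 control and 91 cirrhosis cells, at medians of 1981 and 2452 UMIs. There Trem2 was at 81.4 and 582 CPM, Cd63 at 20.4 and 563 CPM, Fabp5 at a level 4.02-fold higher in cirrhosis (382 CPM), and Ms4a7 at 91.6 and 310 CPM. Mmp12 had 3 and 108 UMIs, a log2 ratio of 5.33 (3.74 to 7.63). Gpnmb had 0 and 26 UMIs, at least 9.65-fold higher against a floor of 3 counts over the control cells. Clec4f, the Kupffer cell lectin, was at 5927 and 4403 CPM in the same cells, and Timd4, a receptor of long-lived Kupffer cells, at 380 and 22.7 CPM. Timd4 thus differed between the libraries within the sub-cluster, and whether both held the same kind of cell there was not tested. The 55 cells of sub-cluster 14, all from cirrhosis and with a median of 21164 UMIs, had Mmp12 at 678 CPM, Trem2 at 481 CPM and Gpnmb at 179 CPM beside Clec4f at 3823 CPM.

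In the other macrophage-like cells 6 of 7 genes were at least 2-fold higher in cirrhosis, where 6.29% of 6103 genes were, and 11.7% were at least 2-fold lower. Fabp5 stood at 60.1 and 1030 CPM, Trem2 at 137 and 765 CPM, Cd63 at 284 and 868 CPM, and Ms4a7 at 290 and 638 CPM. Gpnmb had 0 UMIs in the 39 control cells and 526 CPM in cirrhosis, at least 32.1-fold higher against the floor of 3 counts. Spp1 had 2 control UMIs, 10.9 CPM, and 443 CPM in cirrhosis, a log2 ratio of 5.34 (3.49 to 8.39). The exception was Mmp12, at 404 and 465 CPM, a log2 ratio of 0.20 (-0.13 to 0.56). Its 74 control UMIs all lay in the 11 cells of sub-cluster 12, and without the highest cell the control level was 138 CPM.

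**Figure D2:**
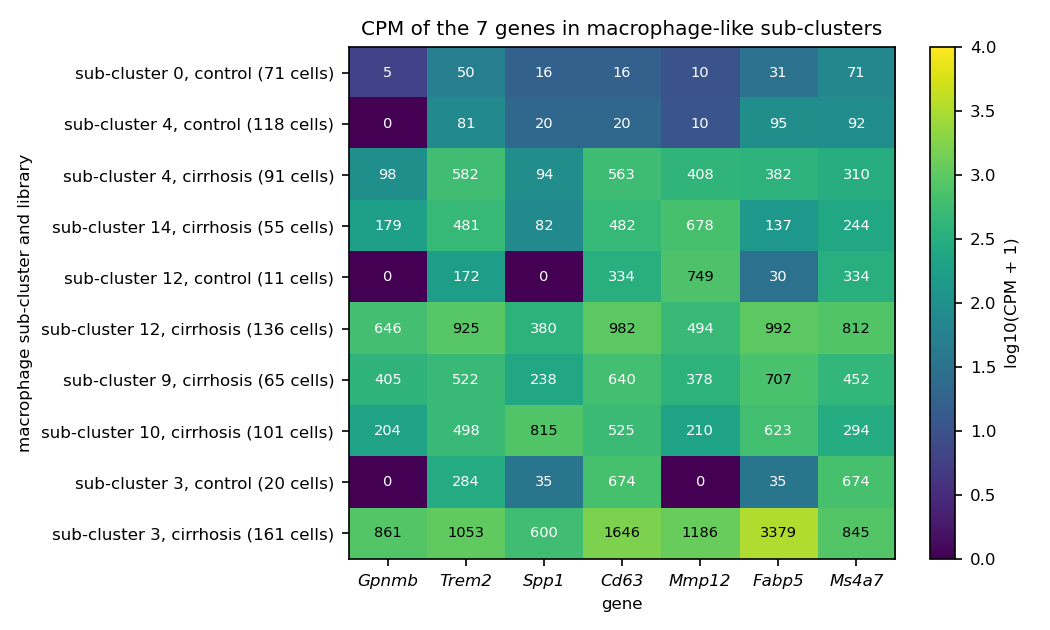
CPM of each gene (columns) in macrophage-like sub-clusters of at least 10 cells by library (lines), with the value printed and the colour giving log10(CPM + 1). Control sub-clusters 0 and 4 are low for all genes, and cirrhosis sub-cluster 3 is highest for Gpnmb, Trem2, Cd63, Mmp12, Fabp5 and Ms4a7, while the Spp1 value of 815 CPM in cirrhosis sub-cluster 10 is 303 CPM without 1 cell.

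Among the cirrhosis sub-clusters the levels varied by gene. Sub-cluster 3, of 161 cells with a median of 1450 UMIs, had Fabp5 at 3379 CPM, Cd63 at 1646 CPM, Mmp12 at 1186 CPM and Gpnmb at 861 CPM. Sub-cluster 12, of 136 cells at a median of 15006 UMIs, had Gpnmb at 646 CPM, Trem2 at 925 CPM and Ms4a7 at 812 CPM, with Cx3cr1, a receptor of monocyte-derived cells, at 618 CPM. Spp1 was at 815 CPM in cycling sub-cluster 10, 600 CPM in sub-cluster 3 and 380 CPM in sub-cluster 12, but a single cell set the first value, and without the highest cell of each the levels were 303, 416 and 313 CPM. Cholangiocyte markers summed to 376 CPM in sub-cluster 10, and their part in its Spp1 level was not tested. Fabp5 ranged most widely, from 137 CPM in Kupffer cell-like sub-cluster 14 to 3379 CPM in sub-cluster 3.

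Several of the genes were often detected in the same cell of the cirrhosis library, where each gene alone was also detected more often. At 2000 UMIs per cell, 3 or more of the 7 genes were detected in 249 of 436 cirrhosis macrophages, 57.1% (52.3 to 61.8), and in 2 of 146 control macrophages, 1.37% (0.166 to 4.86). In cirrhosis 25.5% (21.4 to 29.8) of cells had 5 or more, and 17 cells, 3.90%, had all 7. No control cell of 146 had 5 or more, which allows a share of up to 2.05%. Control macrophages had none of the genes in 67.1% of cells, and cirrhosis macrophages in 8.49%. In T or NK cell-like cells at the same depth, 3 or more were seen in 0 of 262 control cells, which allows up to 1.15%, and in 1 of 237 cirrhosis cells.

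**Figure D3:**
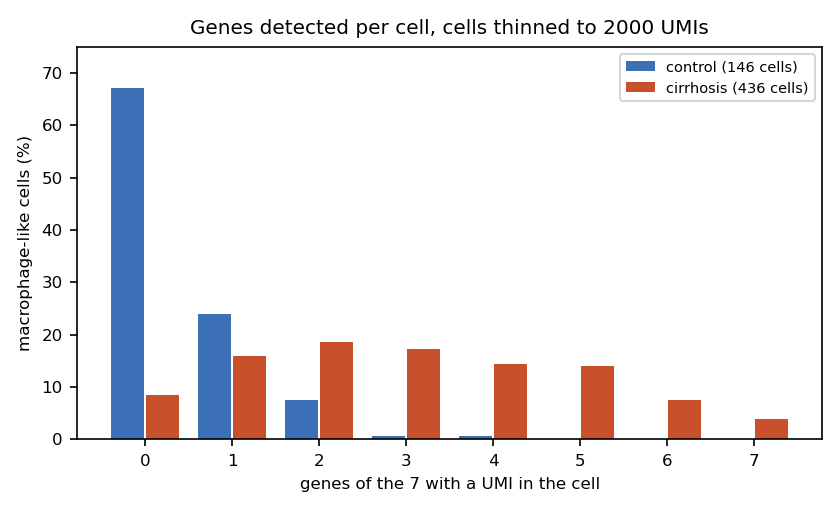
Share of macrophage-like cells, in percent, by how many of the 7 genes had a UMI, with each cell thinned to 2000 UMIs (146 control and 436 cirrhosis cells, 1 library each, no error bars). Control cells pile up at 0 genes (67.1%) and cirrhosis cells spread from 0 to 7 genes with a median of 3.

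Co-detection was found in both kinds of macrophage. In Kupffer cell-like cells 3 or more genes were seen in 1 of 126 control cells, 0.794% (0.0201 to 4.34), and in 50 of 109 cirrhosis cells, 45.9% (36.3 to 55.7). In other macrophage-like cells of the cirrhosis library the share was 60.9% (55.3 to 66.2), while only 20 control cells of that kind were deep enough, 1 of which had 3 or more. With 5 or more genes the cirrhosis shares were 7.34% (3.22 to 13.95) in Kupffer cell-like and 31.5% (26.5 to 36.8) in other macrophage-like cells. Co-detection of most of the genes was thus more frequent in the other macrophages, and their intervals did not overlap. Set against the product of the single shares, the 21 pairs of genes were found together 1.08 to 1.76 times as often in all cirrhosis macrophages. In control macrophages the 15 pairs with a value ranged from 0 to 10.95 times, from few cells with a UMI. The cirrhosis range pools both kinds of macrophage, and in other macrophage-like cells alone it was 1.09 to 1.62 times. In cirrhosis Kupffer cell-like cells the pairs ranged from 0.53 to 1.70 times, so some pairs were found together less often than the product there.

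Gpnmb can serve to show which genes shared a cell. Of the 129 cirrhosis macrophages with a Gpnmb UMI at 2000 UMIs, 86.0% also had Cd63, 83.7% Trem2, 67.4% Fabp5, 64.3% Ms4a7, 54.3% Mmp12 and 41.1% Spp1. Of the 307 cells without one, the shares were 50.2%, 57.7%, 32.6%, 41.4%, 26.7% and 16.0% in the same order. Each partner was thus seen more often in cells with Gpnmb. Clec4f went the other way, in 28.7% (21.1 to 37.3) of cells with Gpnmb and 48.9% (43.1 to 54.6) of those without, and Cx3cr1 was seen in 36.4% (28.1 to 45.4) and 33.6% (28.3 to 39.1). The groups of cells were formed by a gene of the set, so these shares describe and test nothing.

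The genes around the 7 were followed in 12 lists of 105 genes, counted where they reached 20 CPM in either library in the cells compared. This limit is looser than the mean of 20 CPM used for the shares over all genes. In the list of TREM2 signalling, 1 of 8 genes was at least 2-fold higher in cirrhosis and 1 at least 2-fold lower, with a median log2 ratio of -0.02. Clu, the lipid carrier clusterin and also a leading gene of cholangiocyte-like cells, was at 22.0 and 171 CPM, and Hcst, the adaptor DAP10, at 113 and 51.1 CPM. Apoe, an apolipoprotein ligand of TREM2, was at 21263 and 26656 CPM, and Syk, the kinase downstream of DAP12, at 180 and 143 CPM. The ligand and signalling genes thus stayed within 2-fold for 6 of 8 while Trem2 itself differed 10.2-fold. Of the receptors for osteopontin, none of 6 differed by 2-fold, with Cd44 at 546 and 309 CPM, Itga9 at 218 and 113 CPM, Itgb5 at 314 and 485 CPM and Itgb1 at 241 and 186 CPM.

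For lipid uptake, storage and efflux, 3 of 11 genes were at least 2-fold higher, none was lower, and the median was 0.06. These were the scavenger receptor Cd36 at 71.0 and 263 CPM, the fatty acid carrier Fabp4 at 76.6 and 170 CPM, both also made by endothelial cells, and Plin2, the coat protein of lipid droplets, at 187 and 390 CPM. Nr1h3, the liver X receptor alpha, was at 412 and 221 CPM. Among lysosomal genes 3 of 11 were at least 2-fold higher, with a median of 0.36, among them Atp6v0d2, a subunit of the proton pump of macrophages and osteoclasts, with 1 and 570 UMIs (a log2 ratio of 7.15, 4.67 to 12.46), and the protease Ctsd at 1772 and 4734 CPM. Cstb, a cathepsin inhibitor, was at 267 and 508 CPM. In the other macrophage-like cells alone these lists counted 8 of 11 lipid genes and 7 of 11 lysosomal genes at least 2-fold higher, with medians of 1.51 and 1.14. Of the 6103 genes at a mean of 20 CPM there, 6.29% were at least 2-fold higher and 11.7% at least 2-fold lower. Control gave only 39 such cells, at a median of 2032 UMIs. Macrophage markers were also higher in cirrhosis in these cells, summing to 9773 and 14401 CPM, and their part in these counts was not tested. In Kupffer cell-like cells alone 1 of 11 lipid genes and 2 of 11 lysosomal genes were at least 2-fold higher, with medians of 0.41 and 0.44.

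The families of the 7 genes did not move as blocks. Of the tetraspanins and galectins 3 of 7 were at least 2-fold higher, Cd9 at 39.7 and 309 CPM, Lgals1 at 34.8 and 501 CPM and Lgals3 at 559 and 1893 CPM, while Lgals9 was at 104 and 163 CPM. Of the Ms4a family 3 of 5 were higher, Ms4a4c at 11.4 and 86.8 CPM, Ms4a6b at 54.6 and 203 CPM and Ms4a6c at 219 and 497 CPM, and Ms4a8a was lower at 77.3 and 18.0 CPM. Of the other fatty acid binding proteins 2 of 3 were higher, Fabp4 and the hepatocyte gene Fabp1 at 51.1 and 125 CPM, and Fabp7, a Kupffer cell gene, was at 518 and 317 CPM. Of 5 matrix proteases and inhibitors Mmp14 was higher at 6.39 and 58.0 CPM and Mmp9 lower at 75.2 and 2.47 CPM, with Mmp13 at 39.7 and 46.5 CPM and Timp3 at 81.6 and 51.4 CPM.

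The MiT/TFE factors, which drive lysosomal genes, counted 0 of 4 genes at least 2-fold higher and 1 lower. Mitf was at 36.9 and 25.4 CPM, Tfeb at 24.8 and 31.5 CPM, Tfe3 at 75.2 and 55.1 CPM, and Tfec at 77.3 and 32.2 CPM. Within each kind of macrophage 0 of 4 were 2-fold higher or lower. Their median log2 ratio was -0.24 in Kupffer cell-like cells and 0.42 in other macrophage-like cells, where all 4 were higher. Over all macrophages, Kupffer residence genes were at least 2-fold lower for 9 of 12, with a median of -1.42. Among them were Cd163 at 529 and 12.0 CPM, Timd4 at 385 and 9.54 CPM, Clec4f at 4815 and 1312 CPM and Xlr at 46.8 and 15.0 CPM. Genes of monocyte origin were at least 2-fold higher for 6 of 8, with a median of 2.39, among them S100a4 at 10.6 and 73.0 CPM, S100a6 at 27.7 and 176 CPM, Cx3cr1 at 61.7 and 372 CPM and Ccr2 at 75.2 and 423 CPM. Both lists share markers with the class names, and their counts differed within the kinds of macrophage. In Kupffer cell-like cells 3 of 12 residence genes were at least 2-fold lower and 1 higher, with a median of -0.43, and 4 of 6 genes of monocyte origin were higher. In the other macrophage-like cells, with 39 in control, 5 of 9 residence genes were higher and 0 lower, with a median of 1.28, and 1 of 8 genes of monocyte origin was higher, with a median of 0.45. The residence genes thus had the opposite direction in the other macrophage-like cells to that over all macrophages. Of 11 other genes described for lipid-associated or scar-associated macrophages, 4 were higher and 1 lower, with a median of 0.52. Syngr1 had 1 and 303 UMIs, Emp1 had 0 and 219 UMIs (at least 18.2-fold higher), Vim was at 242 and 839 CPM, and Capg at 99.3 and 342 CPM. In Kupffer cell-like cells 2 of 9 genes of this list were at least 2-fold higher and 0 lower, with a median of 0.70. In other macrophage-like cells 7 of 11 were higher and 1 lower, with a median of 1.12.

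Over 20 class-by-library sums of at least 50 cells, the genes most like each member among 7162 were found by the Pearson correlation of log2(CPM + 10). The sums of 1 library share its free RNA and depth, so these values only describe. Gpnmb was most like Atp6v0d2 (0.95) and Mmp12 (0.94), Trem2 most like Ms4a7 (0.98) and the chemokine Cxcl14 (0.94), and Ms4a7 most like Trem2 (0.98) and Ms4a6d (0.95). Mmp12 was most like Gpnmb (0.94) and Trem2 (0.94). Spp1 was most like Tstd1 (0.98) and Tm4sf4 (0.96), the latter a marker used to name cholangiocyte-like cells. Cd63, with Prdx2 (0.85) and Hcfc1r1 (0.84), and Fabp5, with Rap2a (0.85) and Ncaph2 (0.83), had the lowest first values of the 7. Gpnmb, Trem2, Mmp12 and Ms4a7 thus had a member among their nearest genes, and Spp1, Cd63 and Fabp5 did not.

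In LSEC-like cells the genes parted into those at a mean of 20 CPM or more and those far below it. Cd63 stood at 38.6 CPM (36.1 to 41.2) in control and 203 CPM (198 to 209) in cirrhosis, a log2 ratio of 2.40 (2.29 to 2.50). Fabp5 was high in both libraries, at 468 CPM (459 to 477) and 567 CPM (558 to 576), a log2 ratio of 0.28 (0.24 to 0.31). In none of the 3 clusters of the class was Fabp5 higher in cirrhosis beyond the counting interval. Spp1 was at 17.0 and 26.2 CPM, close to the 17.1 and 24.9 CPM of T or NK cell-like cells, and its log2 ratio of 0.62 ranged from -1.40 where cells were taken by markers alone to 2.11 with a stricter cell filter. Of the 3 genes at a mean of 20 CPM, only Cd63 was at least 2-fold higher in cirrhosis, as were 1.47% of 6877 genes, and none was 2-fold lower, as were 1.56%.

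The 4 remaining genes were below 5 CPM in LSEC-like cells of both libraries. Trem2 was at 0.531 and 4.40 CPM, Mmp12 at 0.398 and 2.63 CPM, Ms4a7 at 0.486 and 2.38 CPM, and Gpnmb had 3 and 55 UMIs, 0.133 and 1.98 CPM. Their log2 ratios lay between 2.29 and 3.90, but in cirrhosis T or NK cell-like cells stood at 11.1 CPM for Trem2, 5.90 CPM for Mmp12, 2.62 CPM for Ms4a7 and 1.97 CPM for Gpnmb. The LSEC-like levels were below these for Trem2 and Mmp12 and close to them for Ms4a7 and Gpnmb. The T or NK cell-like levels rested on only 17, 9, 4 and 3 UMIs. In LSEC-like cells with fewer than 2 macrophage markers Trem2 was at 0.423 and 3.04 CPM and Mmp12 at 0.370 and 2.16 CPM. Ms4a7 was there at 0.159 and 1.84 CPM and Gpnmb at 0.106 and 2.16 CPM. Whether the LSEC-like levels are background was not tested. Macrophage markers in LSEC-like cells summed to 121 CPM in control and 247 CPM in cirrhosis. Their part in the ratios was not tested.

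Cd63 was detected in 18.6% (17.2 to 19.98) of control and 69.3% (67.5 to 70.9) of cirrhosis LSEC-like cells, at median depths of 6909 and 9612 UMIs. At 2000 UMIs per cell the shares were 6.64% and 30.7%, beside 4.96% and 6.33% of the T or NK cell-like class. In cells with fewer than 2 macrophage markers, 2683 and 1819 in number, Cd63 stood at 39.7 and 208 CPM, a difference as large as in all LSEC-like cells. Most control LSEC-like cells were in a cluster with 34 cirrhosis cells and most cirrhosis cells in one with 135 control cells, so the classes compared are largely different clusters. In the cluster with 807 control and 364 cirrhosis cells Cd63 was at 40.8 and 173 CPM and Fabp5 at 434 and 470 CPM, a log2 ratio for Fabp5 of 0.12 (-0.01 to 0.24). In the cluster with 135 control and 2471 cirrhosis cells Fabp5 was lower in cirrhosis, at 697 and 575 CPM, a log2 ratio of -0.28 (-0.39 to -0.15). In that with 2103 and 34 cells it was at 463 and 412 CPM, a log2 ratio of -0.17 (-0.44 to 0.09). Fabp5 was detected in 52.2% and 54.8% of LSEC-like cells at 2000 UMIs.

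The large-vessel endothelial-like class showed the same order for Cd63. LSEC markers in this class summed to 11410 CPM in control and 4418 CPM in cirrhosis, and large-vessel markers to 1658 and 3337 CPM. The control cells thus carried much LSEC marker RNA, and its part in the Cd63 levels was not tested. Large-vessel endothelial-like cells, 209 and 519 in number, had Cd63 at 95.4 and 267 CPM, 2.80-fold higher in cirrhosis, where 2.89% of 7018 genes were at least 2-fold higher and 3.28% at least 2-fold lower. In its cluster led by Rspo3 and Wnt9b, genes of central vein endothelium, Cd63 was at 44.2 and 218 CPM, and in that led by Gja5 and Vwf, genes of arteries and large veins, at 166 and 315 CPM. Fabp5 was at 330 and 627 CPM in the Rspo3 cluster and at 801 and 485 CPM in the Gja5 cluster, in opposite directions. LSEC markers summed to 13221 and 3127 CPM in the former and 8923 and 5671 CPM in the latter. Lymphatic endothelial-like cells, of which 62 came from cirrhosis and 2 from control, had Cd63 at 605 CPM in cirrhosis.

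**Figure D4:**
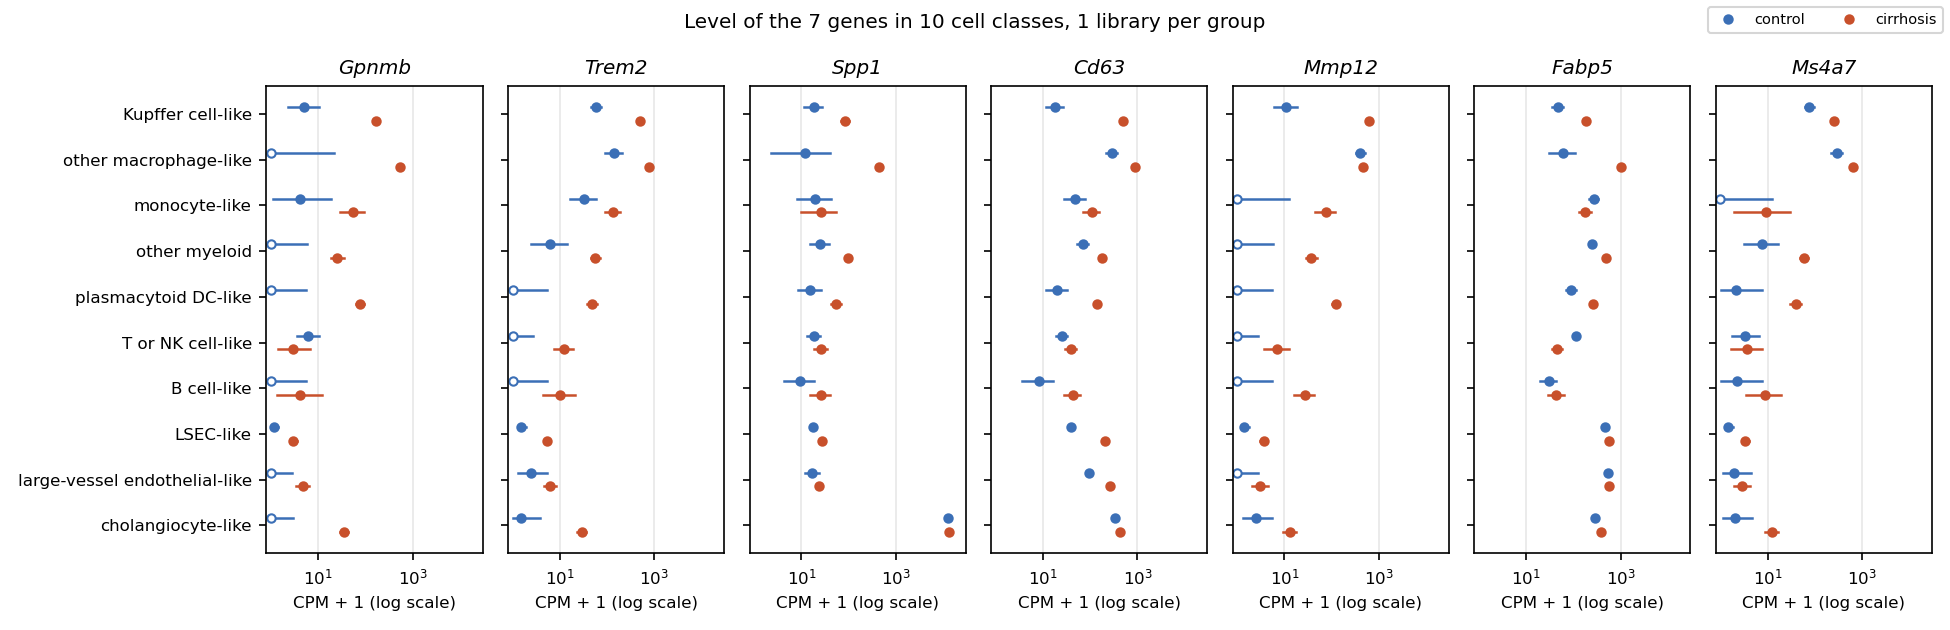
Level of each gene as CPM + 1 on a log axis in 10 cell classes, 1 point per library with its 95% exact Poisson interval; open points mark 0 counts. Gpnmb, Trem2 and Ms4a7 are highest in cirrhosis macrophages, Mmp12 in cirrhosis Kupffer cell-like cells at 620 CPM, Spp1 in cholangiocyte-like cells of both libraries at 12787 and 12956 CPM, and Fabp5 is high in endothelial classes of both libraries.

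In cholangiocyte-like cells, 92 in control and 119 in cirrhosis, Spp1 was abundant at close levels in both libraries. It stood at 12787 CPM (12629 to 12947) and 12956 CPM (12827 to 13085) and was found in every cell. The log2 ratio was 0.02 (-0.00 to 0.04), and its sign turned under 4 alternatives, from -0.46 with cells taken by markers alone to -0.093 with a stricter cell filter. Cd63 was at 327 and 417 CPM and Fabp5 at 291 and 377 CPM, log2 ratios of 0.35 (0.21 to 0.49) and 0.38 (0.23 to 0.52). Of these 3 genes at a mean of 20 CPM, 0 were at least 2-fold higher, as were 2.29% of 7640 genes, and 0 at least 2-fold lower, as were 1.2%. The class was led by Spp1 at its naming, although Spp1 did not enter the clustering, and its cholangiocyte markers, Krt19 and Epcam among them, summed to 6608 and 6485 CPM. Hepatocyte markers summed to more in the same class, 8117 and 11690 CPM, and LSEC markers to 5794 and 3512 CPM. The class is thus not free of RNA of other cell types, and their part in its levels was not tested.

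The other genes were rare in bile duct cells, and a few barcodes held most of their counts. Gpnmb had 0 control UMIs and 100 in cirrhosis, 33.6 CPM and at least 21.8-fold higher, in 10 of 119 cells, with 82 of the UMIs in 1 cell. Trem2 had 1 and 84 UMIs, Mmp12 3 and 36, and Ms4a7 2 and 34. Of the 119 cirrhosis barcodes, 5 had over 0.5% of their counts from macrophage markers, and these held 92 of the Gpnmb UMIs, 62 of Trem2, 33 of Mmp12 and 21 of Ms4a7. In the other 114 cells Gpnmb was at 2.86 CPM, Trem2 at 7.87 CPM, Mmp12 at 1.07 CPM and Ms4a7 at 4.65 CPM, beside 1.97, 11.1, 5.90 and 2.62 CPM in cirrhosis T or NK cell-like cells. Spp1 in these 114 cells was at 13483 CPM, Cd63 at 410 CPM and Fabp5 at 372 CPM, so their levels were little changed by leaving out the 5 barcodes.

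**Figure D5:**
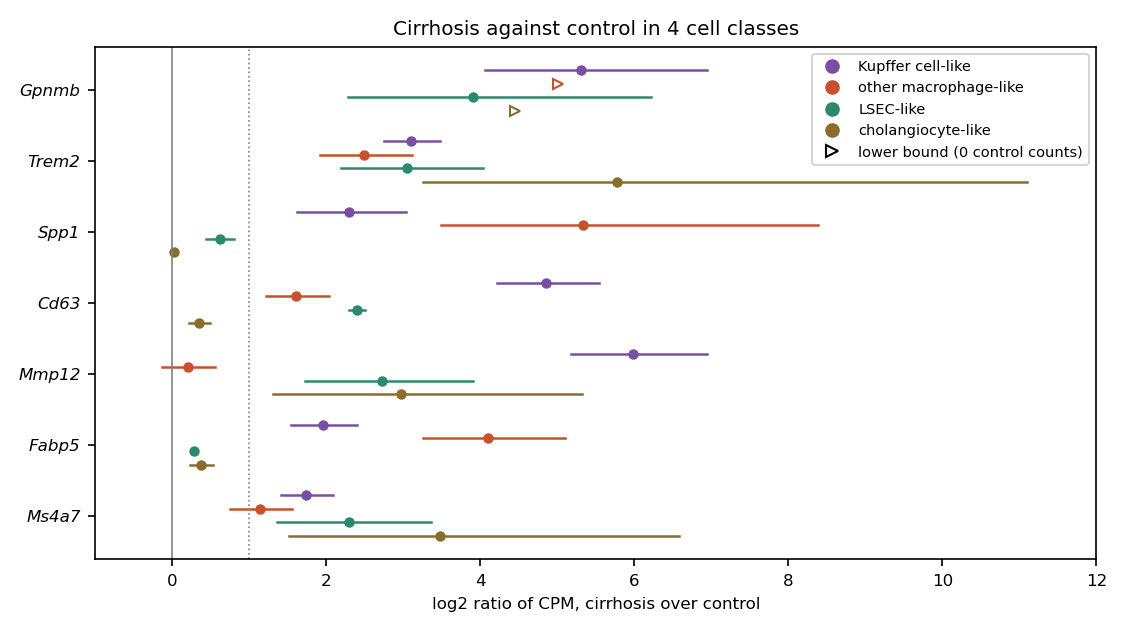
Log2 ratio of CPM, cirrhosis over control, for each gene in 4 cell classes, with exact conditional 95% intervals; open triangles are lower bounds against 0 control counts, the solid line is no difference and the dotted line 2-fold. Cd63 is above 2-fold in both macrophage kinds and LSEC-like cells, while Spp1 and Fabp5 lie below it in LSEC-like and cholangiocyte-like cells.

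Across the 20 sums of at least 50 cells, the order of levels differed by gene. The 39 other macrophage-like cells of control were too few to be ranked, with Trem2 at 137 CPM and Ms4a7 at 290 CPM. Trem2, Ms4a7 and Gpnmb were highest in other macrophage-like and then Kupffer cell-like cells of the cirrhosis library, with intervals that did not overlap. For Trem2 and Ms4a7 control Kupffer cell-like cells came next among the ranked sums, at 57.9 and 75.8 CPM, with an interval that overlapped that of other myeloid cells of cirrhosis. Mmp12 was highest in Kupffer cell-like cells of cirrhosis. Spp1 was highest in cholangiocyte-like cells, followed at a distance by hepatocyte-like barcodes of cirrhosis at 458 CPM and other macrophage-like cells at 443 CPM, whose intervals overlapped. Cd63 was highest in other macrophage-like cells at 868 CPM, then in lymphatic endothelial-like cells at 605 CPM. Fabp5 was highest in other macrophage-like cells of cirrhosis at 1030 CPM, and LSEC-like and large-vessel cells of cirrhosis followed at 567 and 555 CPM with overlapping intervals.

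Some levels outside macrophages rested on single barcodes. In plasmacytoid dendritic cell-like cells Gpnmb was at 0 and 74.0 CPM and Mmp12 at 0 and 119 CPM, and 1 cirrhosis cell held 90 of the 105 Gpnmb UMIs and 1 cell 126 of the 169 Mmp12 UMIs. A myeloid sub-cluster led by Ccr7, a receptor of migrating dendritic cells, with 4 control and 28 cirrhosis cells, had Fabp5 at 1955 and 3135 CPM and Cd63 at 686 and 643 CPM with no Gpnmb UMI. High Fabp5 and Cd63 thus also occurred in myeloid cells without Gpnmb.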

How the data were processed

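For each of the 2 libraries the authors deposited 1 table of raw UMI counts, whole numbers without normalization, with genes and barcodes as its axes. Cell Ranger and the build mm10 are named per the submitters' processing notes; its version, annotation and cell filter were not given in the sources used here, beyond the lowest barcode of 500 UMIs. The 7 genes, the gene lists and the markers were chosen with earlier results of these data known.

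Cells needed 500 UMIs, 300 genes, under 20% mitochondrial and at most 5% erythroid counts, which cost 475 barcodes of control and 666 of cirrhosis. A doublet score was then computed within each library, and 214 and 470 barcodes with the highest scores were dropped, at a rate of 0.8% per 1000 barcodes. Both libraries were clustered together without the 7 genes (scanpy 1.11.5, 2000 variable genes, 30 components, 20 neighbours, Leiden resolution 0.5), and myeloid clusters again at 1.0. Clusters were named from markers. Clusters outside the endothelial classes with LSEC markers over 33% of the LSEC level, sub-clusters of the myeloid clusters included, were kept apart as mixed (891 control and 576 cirrhosis cells); this limit was set after seeing the data.

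Counts were summed per class and library as CPM, with exact Poisson intervals, exact conditional intervals for ratios (scipy 1.17.1), Clopper-Pearson intervals for shares and a floor of 3 counts. Only the ratio intervals were run on simulated data, with counts drawn under the Poisson error that they assume. How they behave when single cells hold many UMIs was not tested. No test between groups was made. With median-of-ratios scaling the log2 ratio of the median gene shifted by -0.02 in macrophage-like, -0.08 in LSEC-like and -0.03 in cholangiocyte-like cells. Named besides the 7 genes were up to 4 genes per list with the largest absolute log2 ratio in macrophage-like cells at 20 CPM or more in either library, and the 2 genes most like each member; other names mark classes or kinds of cells. A single gene chosen in this way is not reported here. Clec7a, a list gene, was not found among the table's symbols. Promoter sequences are from RefSeq (GRCm38.p6), and positions from GENCODE M21.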

Additional observations from a re-analysis of the deposited data

Results flagged for a closer look

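Fabp5 was higher in cirrhosis in macrophage-like, cholangiocyte-like, other myeloid and plasmacytoid dendritic cell-like cells and in the large-vessel cluster led by Rspo3, but lower in some other groups of cells. In LSEC-like cells it was higher over the whole class, but in none of its 3 clusters beyond the counting interval, and lower in the cluster with 135 control and 2471 cirrhosis cells, with a log2 ratio of -0.28 (-0.39 to -0.15). In T or NK cell-like cells it stood at 113 CPM in control and 45.2 CPM in cirrhosis, a log2 ratio of -1.32 (-1.73 to -0.93). In the large-vessel cluster led by Gja5 and Vwf the log2 ratio was -0.72 (-0.85 to -0.59), from 801 to 485 CPM. In monocyte-like cells, of which there were 21 and 20, it was -0.59 (-1.15 to -0.05), from 270 to 179 CPM. The opposite directions drew attention, and the difference between classes was not tested, since there was 1 library per group. LSEC markers, genes of a type with Fabp5 at 468 CPM in control, summed to 3639 and 808 CPM in T or NK cell-like, 7311 and 1232 CPM in monocyte-like and 8923 and 5671 CPM in the Gja5 cluster cells. They also went down in the Rspo3 cluster, from 13221 to 3127 CPM, where Fabp5 was higher. Their part in the Fabp5 levels was not tested.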

How the results depend on the processing

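In macrophage-like cells the members at least 2-fold higher numbered 7 under every alternative run except other macrophage-like cells alone, with 6. The share of all genes at least 2-fold higher was 4.26% in macrophage-like, 2.91% in Kupffer cell-like and 6.29% in other macrophage-like cells. It was not computed for the other alternatives, so nothing is read from these counts. The members were also chosen on this contrast. Their median log2 ratio of 3.90 became 2.76 with cells of 1000 UMIs and under 10% mitochondrial counts, 3.47 with cells taken by markers, 3.10 in Kupffer cell-like and 2.48 in other macrophage-like cells alone, and 3.35 with mixed sub-clusters added. The share of macrophages with 3 or more genes was 9.65% in control and 75.6% in cirrhosis without thinning, and in cirrhosis 39.2% at 1000 UMIs, 23.1% at 500 UMIs, 45.9% in Kupffer cell-like cells and 43.6% with mixed sub-clusters. In control it was 5% in other macrophage-like cells, from 20 cells. In LSEC-like cells the median of 2.40 became 2.25 with doublets kept, 2.85 at resolution 1.0, 2.61 with cells taken by markers, 2.61 as the mean of per-cell CPM, 1.85 in the cluster shared by both libraries and 2.54 in cells with fewer than 2 macrophage markers. At a mean of 20 CPM, 1 of 3 members was at least 2-fold higher in LSEC-like cells, as were 1.47% of 6877 genes. At any level 5 members were, the others among them below 5 CPM in both libraries. No share over all genes was computed for that count, so nothing is read from it. In cholangiocyte-like cells the median of 2.97 became 0.65 with the stricter cell filter and 0.59 without the barcodes over 0.5% macrophage markers. The cause of these shifts was not tested, apart from thinning, which removes UMIs. Spp1 changed direction in LSEC-like cells taken by markers, to -1.40 (2.11 with the stricter filter), and in cholangiocyte-like cells to -0.093 with the stricter filter, -0.21 with doublets kept, -0.46 by markers and -0.24 with a low-depth keratin cluster added. Single-gene ratios moved beyond their counting interval in 29 of 91 cases in macrophage-like, 18 of 69 in LSEC-like and 8 of 51 in cholangiocyte-like cells. Alternatives that use macrophage kinds, mixed, cycling or low-depth sub-clusters, 500 UMIs, shared or pooled endothelial clusters, the keratin cluster, or cholangiocyte or macrophage markers in cells were chosen after seeing the data. Cholangiocyte values were not given without cells over 0.5% of other classes' markers (2 and 13 cells left), nor their median by markers, as 4 members had no ratio. No paired analysis was possible because there was 1 library per group. At this depth the 5 control UMIs of Gpnmb in macrophages leave its log2 ratio between 5.71 and 8.56 by counting error alone. Most of these UMIs lay in a single cell, and the interval does not cover such clumping.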
